A study of Homo sapiens with 4 samples.

Results

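The genes described here are those of cholesterol and fatty acid synthesis, with their sterol-sensing regulators, in MCF10A, a non-tumorigenic line of human mammary epithelium. They were taken from a list of 31 symbols: 19 of sterol synthesis, 5 of sterol regulation and transport and 7 of fatty acid synthesis. A gene was used where at least 1 probe set was annotated to its symbol and no other, and the probe set with the highest mean intensity over the 4 arrays stood for it. This gave 28 genes of the 19775 with such a probe set. FDFT1, CYP51A1 and FADS1 had none and were not analysed here, which leaves 17 sterol synthesis genes, 5 regulators and 6 fatty acid genes.

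There were 4 cultures, each on 1 Affymetrix array. All had been infected with a retrovirus and grew in the same medium, which held horse serum, EGF, hydrocortisone, insulin and cholera toxin. The control culture carried the empty pQCXIH vector. The other cultures carried the same vector with wild-type YAP (YAP-WT), with YAP-S94A, in which a residue needed for binding TEAD transcription factors is altered, or with YAP-W1W2, in which both WW domains are mutated. YAP is the transcriptional coactivator that the Hippo pathway restrains. The labels do not say whether the infected cells were pools or clones. With 1 array per group no difference has a replicate check, so no p-value, standard error or SD is given. Fewer cells making a transcript and less transcript per cell cannot be told apart on such arrays.

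Cholesterol is built from acetyl-CoA through mevalonate, isoprenoid diphosphates, squalene and lanosterol. The SREBP transcription factors, made as membrane precursors that SCAP escorts and INSIG proteins hold back when sterol is plentiful, raise most genes of this route and of fatty acid synthesis together. SREBP-2 is best known for the sterol genes and SREBP-1 for the fatty acid genes, and both usually act beside nuclear factor Y (NF-Y), which binds CCAAT boxes. Growing epithelial cells use both products for new membrane.

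The stretches of 250 bases before the annotated start of 6 of the genes are shown because the results below turn on TM7SF2, MVD and FDPS of the sterol arm, INSIG1 and SREBF2 of the regulators, and SCD of the fatty acid arm. They are RefSeq sequences of GRCh38.p14, written 5′ to 3′ along the gene. Capitals mark NF-Y box letters (CCAAT or its reverse complement) and, in SREBF2, the letters TCACNCCAC of a sterol regulatory element. The stretch of TM7SF2 lies at chr11:65111622-65111871 on the plus strand, that of MVD at chr16:88663092-88663341 on the minus strand, FDPS at chr1:155308616-155308865 on the plus strand, INSIG1 at chr7:155297628-155297877 on the plus strand, SREBF2 at chr22:41832855-41833104 on the plus strand and SCD at chr10:100346983-100347232 on the plus strand.
TM7SF2: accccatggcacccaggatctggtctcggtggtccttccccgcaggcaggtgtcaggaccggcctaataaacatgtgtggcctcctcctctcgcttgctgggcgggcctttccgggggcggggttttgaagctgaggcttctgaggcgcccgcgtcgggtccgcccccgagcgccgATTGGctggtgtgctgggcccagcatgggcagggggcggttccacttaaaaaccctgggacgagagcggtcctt
MVD: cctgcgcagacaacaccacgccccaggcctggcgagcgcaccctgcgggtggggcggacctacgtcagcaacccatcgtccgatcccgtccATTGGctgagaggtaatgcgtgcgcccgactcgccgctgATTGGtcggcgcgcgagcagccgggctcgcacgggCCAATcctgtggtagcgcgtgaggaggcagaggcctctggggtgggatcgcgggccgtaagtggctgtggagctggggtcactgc
FDPS: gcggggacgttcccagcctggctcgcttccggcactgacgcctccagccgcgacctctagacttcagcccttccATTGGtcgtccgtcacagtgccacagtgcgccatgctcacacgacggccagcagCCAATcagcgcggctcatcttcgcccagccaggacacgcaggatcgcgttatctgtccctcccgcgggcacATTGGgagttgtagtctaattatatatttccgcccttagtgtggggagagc
INSIG1: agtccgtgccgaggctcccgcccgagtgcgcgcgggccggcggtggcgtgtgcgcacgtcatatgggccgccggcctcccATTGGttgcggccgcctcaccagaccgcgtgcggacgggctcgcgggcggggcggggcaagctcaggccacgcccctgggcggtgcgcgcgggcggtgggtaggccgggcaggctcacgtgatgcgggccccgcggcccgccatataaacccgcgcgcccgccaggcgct
SREBF2: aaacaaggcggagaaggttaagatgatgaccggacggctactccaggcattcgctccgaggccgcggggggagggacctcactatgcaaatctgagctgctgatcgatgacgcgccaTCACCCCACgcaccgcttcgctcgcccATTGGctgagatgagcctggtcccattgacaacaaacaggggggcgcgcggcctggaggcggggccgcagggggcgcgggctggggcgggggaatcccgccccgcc
SCD: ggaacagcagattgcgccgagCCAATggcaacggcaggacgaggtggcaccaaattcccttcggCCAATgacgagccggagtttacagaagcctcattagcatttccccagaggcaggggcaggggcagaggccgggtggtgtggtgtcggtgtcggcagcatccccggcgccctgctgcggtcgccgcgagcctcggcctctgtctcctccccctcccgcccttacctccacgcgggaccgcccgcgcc

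RefSeq windows of 300 bases, from 250 before to 50 after a start, were found for 25 of the 28 genes and numbered 36, since some genes have several starts. CCAAT stood on either strand in 25 of these windows (69.4%), in 21 genes, against 34.6% of 35114 windows over all genes. The letters TCACNCCAC stood in 1 member window (2.78%), that of SREBF2, against 1.13% of all windows. The E-box CACGTG stood in 5 (13.9%, against 7.26%) and the TEAD box GGAATG, on either strand, in 5 (13.9%, against 14.0%). Windows of the same gene can overlap and share a match, and in IDI1 and NSDHL 2 CCAAT matches on opposite strands overlap. These are letter matches and say nothing about binding in these cells.

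Intensities were used as deposited on a linear scale, and before log2 was taken any value of 72.9 or less (up to the 40th percentile of all 4 arrays) was raised to 72.9, called the floor here. None of the 28 genes was at the floor on any array. All were among the 12759 genes called measured, whose mean intensity reached 113.6, the median probe set's mean. The median measured gene was above vector by log2 differences of 0.14 for YAP-WT, 0.14 for YAP-S94A and 0.10 for YAP-W1W2. Centring each array on its median changed these to −0.03, −0.01 and 0.07, so most of the YAP-W1W2 shift remained. For YAP-W1W2 against YAP-WT the median gene went from −0.04 to 0.09. When each array was centred on its median, the share of 2-fold calls over all genes that were higher went from 64.8% to 50.1% for YAP-WT against vector, from 61.2% to 47.1% for YAP-S94A against vector, from 41.2% to 57.7% for YAP-W1W2 against YAP-WT and from 52.8% to 65.1% for YAP-W1W2 against YAP-S94A. The bacterial hybridization control bioB gave log2 differences from vector of −0.52 for YAP-WT, −0.80 for YAP-S94A and −1.16 for YAP-W1W2, and its part in the results was not tested. The log2 differences of the 3 YAP1 probe sets from vector ran from −0.24 to 0.13 for YAP-WT, 0.04 to 0.60 for YAP-S94A and 0.15 to 0.52 for YAP-W1W2. Whether they can read the construct's transcript is not known, so they do not check the labels. Of the basal mammary epithelial markers, all 7 with a usable probe set were above the floor on every array. The adipocyte genes ADIPOQ, PLIN1 and LEP were at or below the floor on every array, and the summed intensity of 7 adipocyte markers ran from 548.5 to 778.9, against 100697 to 128227 for the 7 basal ones. The fibroblast list summed to 1018 to 1579, the immune list to 224 to 453.5 and the endothelial list to 600.4 to 905. The 5 luminal markers summed to 17146 for vector, 39062 for YAP-WT, 33372 for YAP-S94A and 60877 for YAP-W1W2, and their part in the results was not tested.

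Across the 4 arrays the YAP-WT array was the highest for 20 of the 28 genes and the vector array for 0. Over all measured genes YAP-WT was the highest for 24.5% and vector for 22.6%. The YAP-W1W2 array was the lowest for 15 of the 28, against 26.1% of all genes, and the vector array for 11, against 39.3%. After centring each array on its median, YAP-WT was the highest for 19 members (17.2% of all genes) and YAP-W1W2 the lowest for 15 (20.7%). With quantile normalization these were 19 (19.6%) and 16 (23.7%). The vector array was the highest for 2 members under either scaling, against 30.2% of all genes after centring and 28.5% with quantile normalization.

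**Figure D1:**
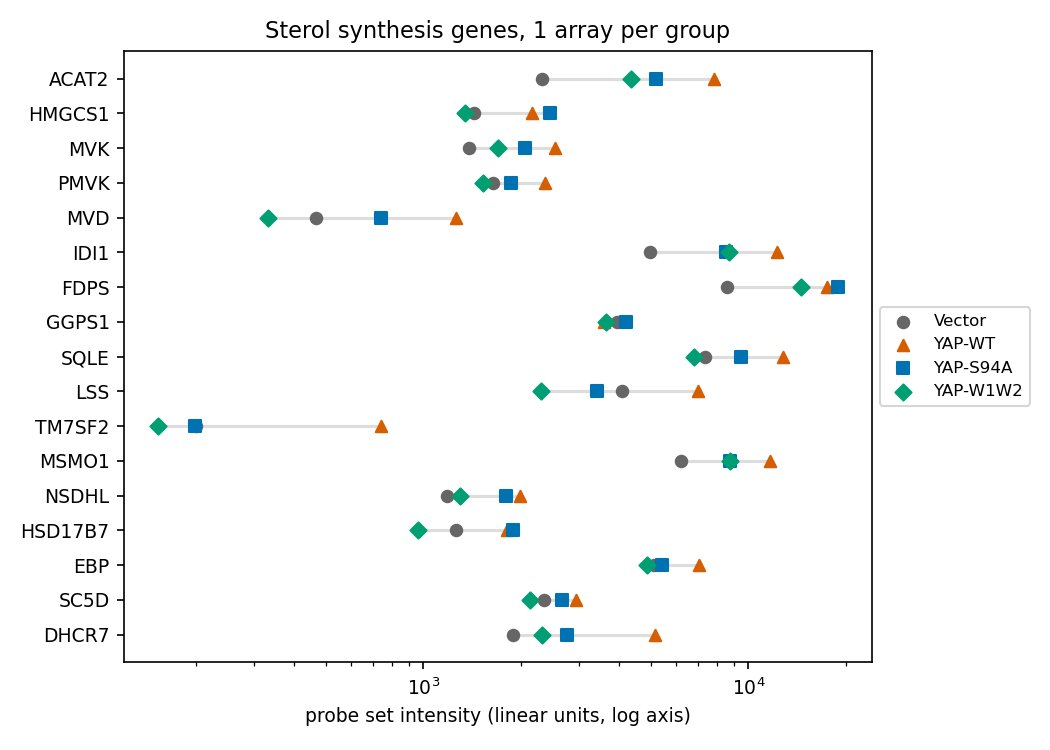
Intensity (log axis) of the 17 sterol synthesis genes on each of the 4 arrays, in pathway order from top to bottom; a point is 1 array and a grey line spans the 4. YAP-WT is the rightmost point for 13 of the 17 genes, and levels of different genes come from different probe sets and cannot be compared.

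YAP-WT was compared with vector to see how lipid synthesis transcripts stood when YAP was added. The sterol arm was higher, with 16 of 17 genes above vector and a median log2 difference of 0.80 (1.74-fold), against 0.14 for the median gene. Of these, TM7SF2, ACAT2, DHCR7, MVD, IDI1 and FDPS passed 2-fold, which is 6 of the 17, and 0 did so downwards. In the fatty acid arm 6 of 6 genes were above vector, with a median of 0.56 (1.47-fold), but only ELOVL6 passed 2-fold. The direction of ACACA, at 0.16, depended on the scaling, with −0.01 after centring and −0.03 with quantile normalization. In all, 7 of the 28 passed 2-fold upwards and 0 downwards, and over all measured genes 9.11% passed 2-fold upwards and 4.95% downwards. At 1.5-fold, 15 of the 28 were higher, against 20.9% of measured genes. Probe sets of IDI1 and LSS, 2 of the 15 members with several measured sets, went in opposite directions.

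All 5 genes used from the opening steps of the sterol route, between acetyl-CoA and isopentenyl diphosphate, were above vector in YAP-WT. ACAT2, the cytosolic thiolase that joins acetyl-CoA units, had an intensity of 2315 for vector, 7834 for YAP-WT, 5198 for YAP-S94A and 4365.5 for YAP-W1W2. Vector was its lowest array, exceeded 3.38-fold by YAP-WT, 2.25-fold by YAP-S94A and 1.89-fold by YAP-W1W2. ACAT2, MVD and FDPS rested on 1 measured probe set each. HMGCS1, the HMG-CoA synthase, stood at 1428 for vector, 2154 for YAP-WT, 2453 for YAP-S94A and 1338 for YAP-W1W2, so that the YAP-W1W2 and vector arrays were low and the other two high. The mevalonate kinase MVK stood at 1385 for vector, 2547 for YAP-WT, 2059 for YAP-S94A and 1699 for YAP-W1W2. The next kinase, PMVK, showed a narrower spread, from 1525.0 in YAP-W1W2 to 2374 in YAP-WT.

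MVD, the decarboxylase that yields isopentenyl diphosphate, separated the arrays more than the kinases did. Its intensity was 466 for vector, 1263 for YAP-WT, 739 for YAP-S94A and 332 for YAP-W1W2. YAP-WT exceeded vector 2.71-fold, and YAP-W1W2 was 3.81-fold below YAP-WT. The log2 difference of YAP-W1W2 from vector was −0.49, within 2-fold.

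The isoprenoid steps divided. IDI1, the isomerase, stood at 4976 for vector, 12243 for YAP-WT, 8515 for YAP-S94A and 8738 for YAP-W1W2. FDPS, which makes farnesyl diphosphate, the branch point to sterols and protein prenylation, stood at 8603 for vector, 17428 for YAP-WT, 18834 for YAP-S94A and 14463 for YAP-W1W2. Both were lowest in vector and stayed above it in the mutants, with FDPS 2.19-fold higher with YAP-S94A and 1.68-fold with YAP-W1W2. GGPS1, which draws farnesyl diphosphate off towards geranylgeranylated proteins and away from cholesterol, varied least, from 3580.5 in YAP-WT to 4189 in YAP-S94A, and was the only sterol-arm gene below vector in YAP-WT. Its other measured probe set was also below vector in YAP-WT, by a log2 difference of −0.53. The FDPS differences from vector were under 2-fold when each array was centred on its median, and the IDI1 difference in YAP-WT was under 2-fold with the mean over probe sets. The chosen IDI1 probe set has the _x_at suffix that Affymetrix gives to sets that may bind other transcripts, and the dimmest measured set gave −0.79 for YAP-WT against vector.

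The steps from squalene to lanosterol were highest in YAP-WT. SQLE, the squalene epoxidase, stood at 7337 for vector, 12753 for YAP-WT, 9517 for YAP-S94A and 6807.5 for YAP-W1W2. Its chosen probe set put YAP-W1W2 below vector by a log2 difference of −0.11, and the next brightest put it above by 0.13. The dimmer measured SQLE sets put YAP-W1W2 below vector, at −0.66 and −1.40, the latter with the YAP-W1W2 value under the floor. LSS, which cyclizes the epoxide to lanosterol, stood at 4073 for vector, 6988 for YAP-WT, 3425 for YAP-S94A and 2294 for YAP-W1W2. For LSS both mutants lay below vector and YAP-WT above it, although a dimmer set put YAP-S94A above vector by a log2 difference of 0.45 and another put YAP-WT at −0.04. The difference from YAP-WT was 2.04-fold in YAP-S94A and 3.05-fold in YAP-W1W2. The 3 measured LSS probe sets gave log2 differences of −1.61, −2.02 and −1.73 for YAP-W1W2 against YAP-WT.

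Of the enzymes that turn lanosterol into cholesterol, 2 stood out. TM7SF2, a sterol reductase, had an intensity of 200 for vector, 741 for YAP-WT, 199 for YAP-S94A and 153 for YAP-W1W2. YAP-WT alone was high and the 3 other arrays lay together, with YAP-WT 3.71-fold above vector, 3.73-fold above YAP-S94A and 4.85-fold above YAP-W1W2. TM7SF2 rested on 1 probe set. DHCR7, the last reductase of the Kandutsch-Russell branch, stood at 1889 for vector, 5157 for YAP-WT, 2765 for YAP-S94A and 2323 for YAP-W1W2. YAP-WT exceeded vector 2.73-fold, and both mutants were nearer to vector. Its other probe set gave a log2 difference of 1.51 for YAP-WT against vector, beside 1.45 for the chosen set.

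By the chosen probe sets the remaining late enzymes stayed within 2-fold of vector. MSMO1, the methylsterol monooxygenase, stood at 6189 for vector, 11672 for YAP-WT, 8752 for YAP-S94A and 8746 for YAP-W1W2, with YAP-WT highest and the mutants level with each other. NSDHL, which works with MSMO1 to strip methyl groups from the sterol ring, stood at 1182 for vector, 1985 for YAP-WT, 1796 for YAP-S94A and 1291 for YAP-W1W2. HSD17B7, the ketoreductase of the same complex, stood at 1259 for vector, 1804 for YAP-WT, 1880.3 for YAP-S94A and 964 for YAP-W1W2, again from an _x_at probe set. Its value is uncertain because the genome holds a near-identical pseudogene. The sterol isomerase EBP and the desaturase SC5D were above vector in YAP-WT by log2 differences of 0.46 and 0.33 and below it in YAP-W1W2 by −0.06 and −0.14. A dimmer SC5D probe set gave −1.25 for YAP-S94A and −1.45 for YAP-W1W2 against vector, so these differences depend on the probe set.

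**Figure D2:**
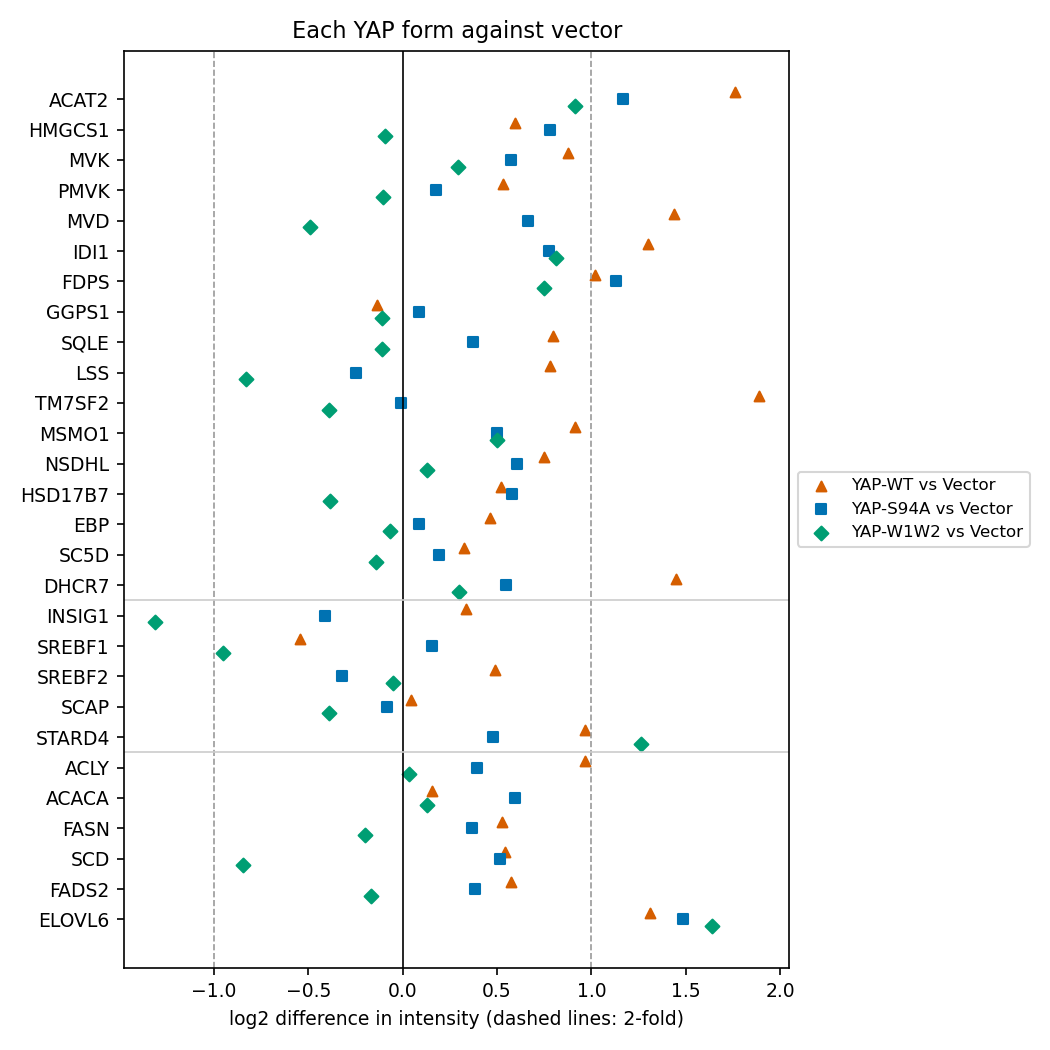
Log2 difference in intensity of each of the 28 genes from the vector array, for YAP-WT, YAP-S94A and YAP-W1W2 (1 array each); grey lines separate the sterol arm, the regulators and the fatty acid arm, and dashed lines mark 2-fold. Triangles (YAP-WT) lie right of 0 for 26 genes and diamonds (YAP-W1W2) for 11; the 3 comparisons share the vector array.

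YAP-S94A was compared with vector to see how the same genes stood with a YAP impaired in TEAD binding. The sterol arm lay above vector for 15 of 17 genes, with a median log2 difference of 0.55 (1.46-fold). Relative to the median gene 13 of the 17 were higher. Of the 15 members with several measured probe sets, 8 had sets in opposite directions here, among them the sterol genes IDI1, GGPS1, SQLE, LSS, NSDHL and SC5D. By the chosen probe sets only ACAT2 and FDPS passed 2-fold, and LSS and TM7SF2 lay below vector, at −0.25 and −0.01. Dimmer measured sets passed 2-fold upwards for HMGCS1 (1.38) and downwards for SC5D (−1.25). With the mean over its probe sets HMGCS1 was at 1.08. The fatty acid arm lay above vector for 6 of 6 genes with a median of 0.45. By the chosen sets ELOVL6 alone passed 2-fold, and the dimmest measured SCD set did so at 1.17. Past 2-fold were 3 of the 28 genes upwards and 0 downwards, against 10.3% and 6.53% of measured genes, so the members passed 2-fold about as often as genes in general. After centring, the sterol median was still above 0, and with the mean over a gene's probe sets it was 0.21, the lowest of the alternatives tried.

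YAP-W1W2 was compared with vector to see how the genes stood when a YAP with mutated WW domains was added. The sterol arm was divided, with 7 genes above vector and 10 below and a median of −0.09. By the chosen probe sets none of its genes passed 2-fold in either direction. Dimmer measured sets did so downwards for LSS (−1.13 and −1.77), SQLE (−1.40) and SC5D (−1.45), and upwards for IDI1 (1.01). With the mean over its probe sets LSS was also more than 2-fold below vector. Of the 15 members with several measured probe sets, 7 had sets in opposite directions. Among the chosen sets the largest positive differences were those of ACAT2 (0.92), IDI1 (0.81) and FDPS (0.75). The largest negative ones were those of LSS (−0.83), MVD (−0.49) and TM7SF2 (−0.39). The fatty acid arm had 3 genes above and 3 below, with a median of −0.07. Past 2-fold were 2 of the 28 upwards (ELOVL6 and STARD4) and 1 downwards (INSIG1), against 11.4% and 8.40% of measured genes.

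The regulators lay below the sterol enzymes as a group, with median differences from vector of 0.33 for YAP-WT, −0.08 for YAP-S94A and −0.39 for YAP-W1W2. INSIG1, itself a well-known SREBP target that retains SCAP in the endoplasmic reticulum, stood at 2467 for vector, 3111.5 for YAP-WT, 1854 for YAP-S94A and 991.5 for YAP-W1W2. Its order was that of LSS and TM7SF2, with YAP-WT above vector and both mutants below. YAP-W1W2 was 2.49-fold below vector and 3.14-fold below YAP-WT. The 2 other INSIG1 probe sets gave log2 differences of −0.76 and −0.71 for YAP-W1W2 against vector, under 2-fold, and −1.43 and −1.76 against YAP-WT. For YAP-S94A against vector they gave −0.21 and 0.08, beside −0.41.

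The SREBP genes themselves differed in pattern. SREBF1, which encodes SREBP-1, stood at 937 for vector, 642 for YAP-WT, 1042 for YAP-S94A and 484 for YAP-W1W2. It was the only regulator below vector in YAP-WT, by a log2 difference of −0.55, and it was 2.16-fold lower in YAP-W1W2 than in YAP-S94A. SREBF2, which encodes SREBP-2, stood at 1943 for vector, 2731 for YAP-WT, 1557 for YAP-S94A and 1872.5 for YAP-W1W2. YAP-WT was the high array for SREBF2, and the 2 dimmer probe sets gave log2 differences from vector of 0.16 and 0.60 beside 0.49. SCAP ranged from 1288 in YAP-W1W2 to 1742 in YAP-WT, with the YAP-WT and vector arrays 1.03-fold apart. STARD4, a carrier that moves cholesterol between membranes and a sterol-regulated gene, stood at 1339.5 for vector, 2613 for YAP-WT, 1864 for YAP-S94A and 3218 for YAP-W1W2. It was the only regulator highest in YAP-W1W2, at 2.40-fold above vector, and rested on 1 probe set.

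**Figure D3:**
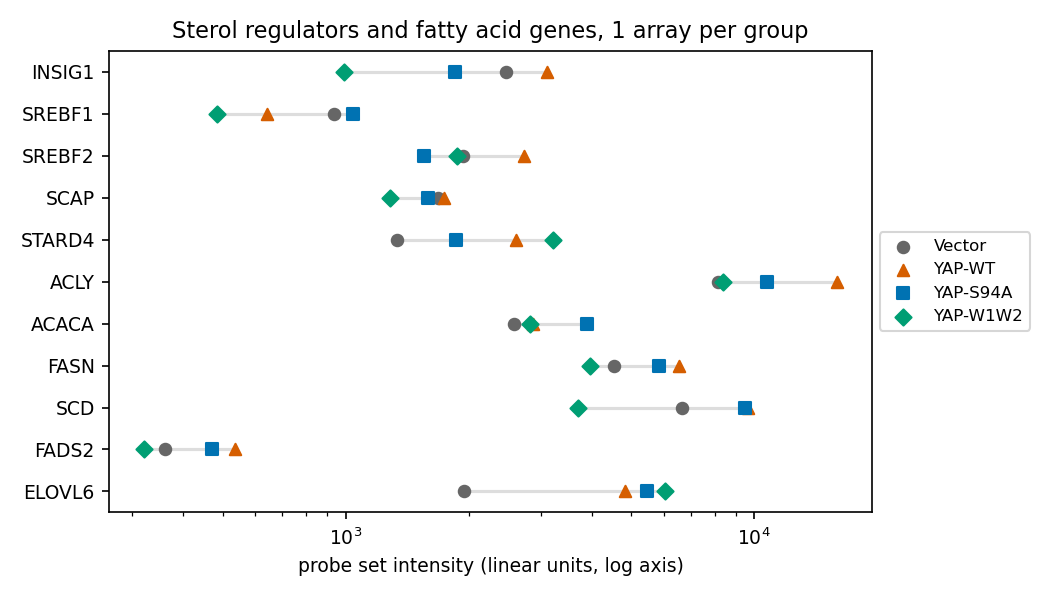
Intensity (log axis) of the 5 sterol regulators and transport genes and the 6 fatty acid genes on each of the 4 arrays; a point is 1 array and a grey line spans the 4. YAP-W1W2 is the leftmost point for INSIG1, SREBF1, SCAP, FASN, SCD and FADS2 and the rightmost for STARD4 and ELOVL6.

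In the fatty acid arm the supply of precursor came first. ACLY, which cleaves citrate to cytosolic acetyl-CoA for both pathways, stood at 8162 for vector, 15953 for YAP-WT, 10732 for YAP-S94A and 8367 for YAP-W1W2. YAP-WT exceeded vector 1.95-fold, and YAP-W1W2 was 1.91-fold below YAP-WT. ACACA, the carboxylase that makes malonyl-CoA, was highest in YAP-S94A at 3897, with 2578 in vector, 2874 in YAP-WT and 2824 in YAP-W1W2. FASN, the fatty acid synthase, stood at 4531 for vector, 6527 for YAP-WT, 5836 for YAP-S94A and 3953 for YAP-W1W2.

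The enzymes that modify the finished chain were split in YAP-W1W2. SCD, the stearoyl-CoA desaturase, stood at 6643.5 for vector, 9658 for YAP-WT, 9486 for YAP-S94A and 3695 for YAP-W1W2. YAP-WT and YAP-S94A were level, 1.02-fold apart, while YAP-W1W2 was 2.61-fold below YAP-WT and 2.57-fold below YAP-S94A. For YAP-S94A against YAP-WT the dimmer SCD sets gave log2 differences of −0.04, −0.08 and, for the dimmest, 0.71. All 4 measured SCD probe sets were lower in YAP-W1W2 than in YAP-WT, by log2 differences from −0.74 to −1.58. FADS2, a desaturase of polyunsaturated fatty acids, stood at 361 for vector, 537 for YAP-WT, 471 for YAP-S94A and 321 for YAP-W1W2. ELOVL6, the elongase of saturated fatty acids, was instead lowest in vector at 1944, with 4830.2 for YAP-WT, 5450.0 for YAP-S94A and 6048 for YAP-W1W2. It was 2.48-fold, 2.80-fold and 3.11-fold above vector in turn. Its 2 other probe sets gave log2 differences from vector of 0.60 and 0.19 for YAP-WT, 1.29 and 0.17 for YAP-S94A, and 1.09 and 0.09 for YAP-W1W2, so only 1 of 3 probe sets passed 2-fold for YAP-WT and 2 of 3 for each mutant.

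The mutants were also set directly against YAP-WT, which leaves the vector array out. In YAP-W1W2 the sterol arm was lower for 16 of 17 genes, with a median log2 difference of −0.64 (1.56-fold lower), and the median gene stood at −0.04. TM7SF2, MVD, LSS and DHCR7 were at least 2-fold lower. The fatty acid arm was lower for 5 of 6 genes with a median of −0.73, and SCD passed 2-fold. Relative to the median gene 4 of the 6 were lower. The direction of ACACA, at −0.03, depended on the scaling, with 0.11 after centring and 0.04 with quantile normalization. Counting INSIG1, 6 of the 28 genes passed 2-fold downwards and 0 upwards, against 5.59% and 3.91% of measured genes. At 1.5-fold 15 of the 28 were lower, against 15.2% of measured genes. With probe sets lacking an _s_at or _x_at suffix only, 17 members had a value and the fatty acid median, then over ACACA and ELOVL6 alone, was 0.15.

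In YAP-S94A the sterol arm was lower than in YAP-WT for 13 of 17 genes, with a median of −0.37 (1.30-fold lower). TM7SF2 and LSS were at least 2-fold lower, at log2 differences of −1.90 and −1.03, and LSS was within 2-fold with the mean over its probe sets. HMGCS1, FDPS, GGPS1 and HSD17B7 lay slightly above YAP-WT, by 0.06 to 0.23. The fatty acid arm had no common direction, with 2 genes above and 4 below and a median of −0.09 that was 0.16 with the mean over probe sets. Past 2-fold were 0 of the 28 upwards and 2 downwards, against 5.06% and 6.27% of measured genes, a share like that of genes in general.

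**Figure D4:**
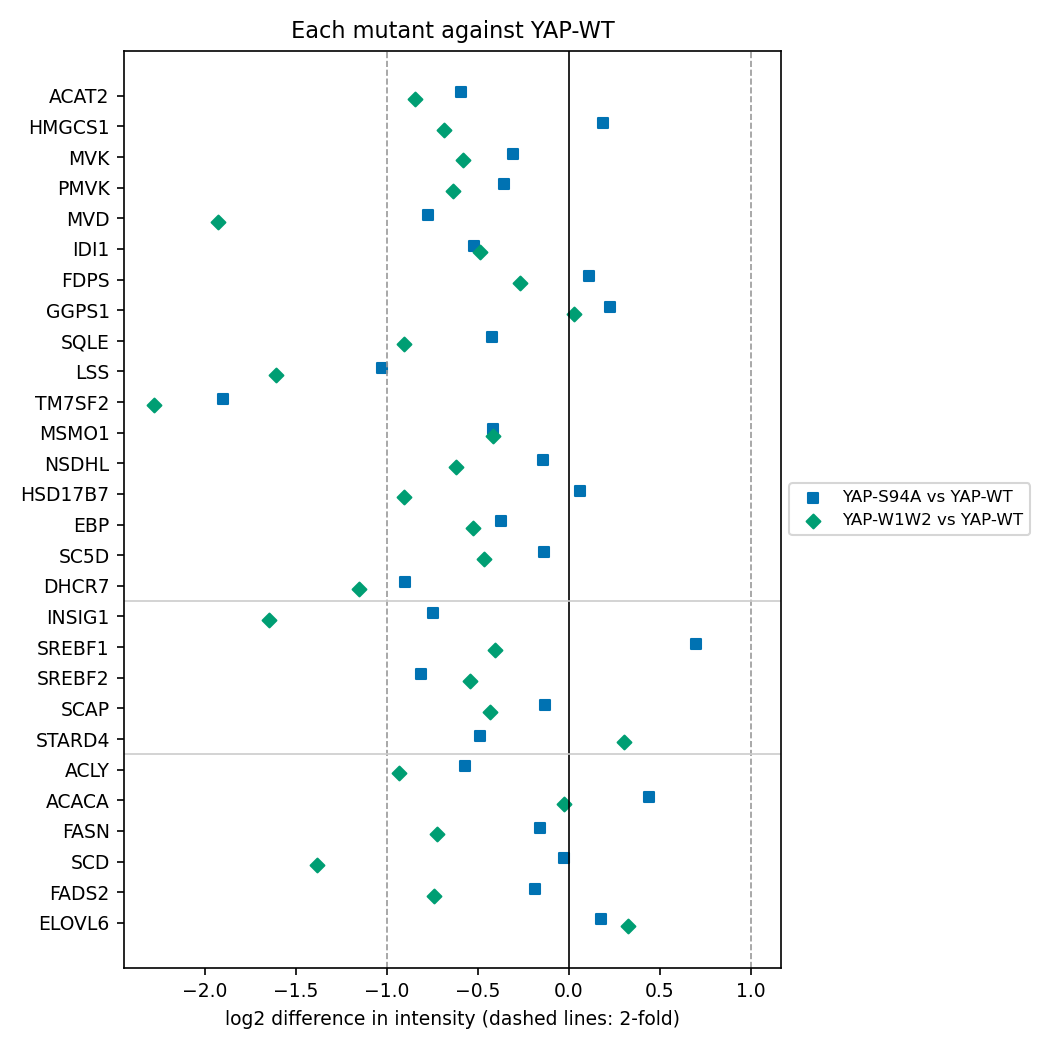
Log2 difference in intensity of each of the 28 genes from the YAP-WT array, for YAP-S94A and YAP-W1W2 (1 array each); grey lines separate the sterol arm, the regulators and the fatty acid arm, and dashed lines mark 2-fold. Diamonds (YAP-W1W2) lie left of 0 for 25 genes and squares (YAP-S94A) for 21; both comparisons use the same YAP-WT array.

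Between the mutants, YAP-W1W2 was below YAP-S94A for 16 of 17 sterol genes and 5 of 6 fatty acid genes, with medians of −0.33 and −0.51 against −0.07 for the median gene. Relative to the median gene 15 of the 17 and 5 of the 6 were lower. SCD, MVD and SREBF1 passed 2-fold downwards, 3 of the 28 genes, and 0 upwards, against 4.45% and 4.98% of measured genes. SCD and MVD differed by 2.57-fold and 2.23-fold. HSD17B7, INSIG1 and HMGCS1 were lower by 1.95-fold, 1.87-fold and 1.83-fold by their chosen probe sets, under the threshold. The dimmer measured HMGCS1 set gave a log2 difference of −1.12, past it. STARD4 was the main exception at 1.73-fold higher in YAP-W1W2. The SREBF1 difference was within 2-fold after centring.

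**Figure D5:**
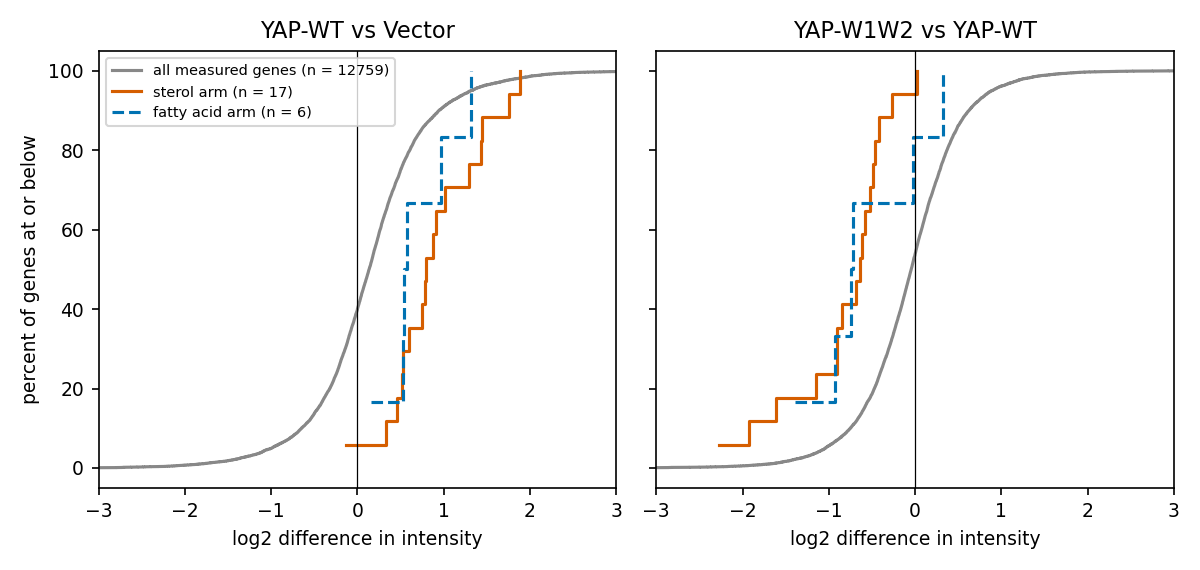
Cumulative percent of genes (y axis) at or below a log2 difference in intensity (x axis) for all 12759 measured genes, the 17 sterol genes and the 6 fatty acid genes, in YAP-WT against vector (left) and YAP-W1W2 against YAP-WT (right). Both arms lie mostly right of all genes on the left, except in the upper tail, with medians of 0.80 and 0.56 against 0.14. They lie mostly left of all genes on the right, with medians of −0.64 and −0.73 against −0.04.

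Other genes of sterol handling lay nearer to the median gene than the enzymes did. Of 20 such genes 18 were measured, with median differences from vector of 0.24 for YAP-WT, −0.05 for YAP-S94A and 0.09 for YAP-W1W2. TMEM97, a sterol-regulated partner of the cholesterol exporter NPC1, was the only 1 past 2-fold in YAP-WT. Its intensity was 1567 for vector, 7081 for YAP-WT, 3459 for YAP-S94A and 3157 for YAP-W1W2, so it had the order of ACAT2 and DHCR7, and YAP-WT exceeded vector 4.52-fold. It was also the only sterol-handling gene past 2-fold in YAP-W1W2 against vector. STARD3, a late-endosomal sterol carrier, was above vector 2.25-fold in YAP-S94A, 1.80-fold in YAP-WT and 1.90-fold in YAP-W1W2. The cholesterol efflux pump ABCA1 was 2.19-fold lower in YAP-S94A than in YAP-WT at intensities of 92.4 and 203, near the floor.

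Genes of fatty acid supply, activation and storage were lower in YAP-W1W2 than in the other cultures by their median. Of 24 genes 20 were measured. Their median difference from vector was 0.15 for YAP-WT, 0.11 for YAP-S94A and −0.24 for YAP-W1W2, with 0, 2 and 4 of them past 2-fold downwards, against 4.95%, 6.53% and 8.40% of measured genes. Upwards, 2 passed 2-fold for YAP-W1W2 (11.4% of measured genes) and 0 for the other forms. ACSL1, which activates long-chain fatty acids, stood at 8867 for vector, 5026 for YAP-WT, 2725 for YAP-S94A and 1790.5 for YAP-W1W2, and was 4.95-fold lower in YAP-W1W2 than in vector. LPIN1, a phosphatidate phosphatase of glycerolipid synthesis, stood at 7689 for vector, 8834 for YAP-WT, 2883 for YAP-S94A and 2069.5 for YAP-W1W2. Both mutants were low for LPIN1, and YAP-WT and vector were high. Against YAP-WT 5 of the 20 genes passed 2-fold downwards in YAP-W1W2 and 0 upwards (5.59% and 3.91% of measured genes), among them DGAT2, which makes triglyceride (2.62-fold), and ACSS2, which makes acetyl-CoA from acetate (2.45-fold). ELOVL5, an elongase of polyunsaturated fatty acids, was 2.92-fold lower in YAP-S94A than in YAP-WT. ELOVL7, an elongase of saturated fatty acids, was 3.40-fold above vector in YAP-W1W2.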

How the data were processed

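Total RNA of 4 cultures of MCF10A cells was measured with 1 Affymetrix array each. The deposited values are probe set intensities on a linear scale; per the submitters' processing notes they were made with GCOS, with version and scaling unstated.

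Of 54675 probe sets, 62 controls were set apart and 41091 had 1 gene symbol in the platform's annotation. The 2% trimmed means of the arrays differed by a ratio of at most 1.098, so no scaling was applied. The members and lists were chosen with earlier results of these data known. All 28 members could be named; from each related list, up to 4 genes past 2-fold in a comparison, or the 2 largest differences, could be. With 1 array per group the number of arrays limits the precision, and genes were counted at 2-fold with no test. Scaling, floor, probe set, filter and fold were varied. The steps were tested on simulated data without shifts between arrays, so that test says nothing about such shifts in the real arrays. Python 3.11.15, pandas 2.3.3, NumPy 2.4.6 and SciPy 1.17.1 were used.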

Additional observations from a re-analysis of the deposited data

How the results depend on the processing

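No paired analysis was possible because each group has 1 array and no result comes from a test. Of 222 recomputed arm medians and member counts, 201 stayed within 1.5-fold of the main value, the medians among them with the same sign. Lowering the floor or keeping dim genes could not change these values, since no member was at the floor and all were measured. All 24 member differences past 2-fold kept their sign wherever they had a value. Of those 24, 21 stayed past 2-fold after centring or quantile normalization and 17 with the mean over probe sets. Without suffixed probe sets 11 had a value. These came from the same probe sets as the main values, so that setting could not change them. Lists of 28 genes limit what a count can show.

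The median of the fatty acid arm turned to 0.16 for YAP-S94A against YAP-WT with the mean over probe sets, and the cause was not tested. That mean also takes in probe sets whose own mean intensity was under 113.6. In this arm such sets of FASN, ACACA and FADS2 gave 0.525, 1.15 and 0.0 for YAP-S94A against YAP-WT. Without suffixed probe sets the fatty acid median rested on 2 genes. It was 0.31 for YAP-S94A against YAP-WT, 0.88 for YAP-W1W2 against vector, 0.15 for YAP-W1W2 against YAP-WT and 1.04 for YAP-S94A against vector. The sterol medians kept their sign under all 7 alternatives in every comparison. Among these, the lower floor and the keeping of dim genes could not have changed a sign. The medians ran from 0.55 to 0.80 for YAP-WT against vector and from −0.72 to −0.51 for YAP-W1W2 against YAP-WT.

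Without suffixed probe sets, 17 members had a value. Of these, 2 were 2-fold above vector for YAP-WT (9.35% of all genes under this setting), and 1 for YAP-S94A (7.13%) and 2 for YAP-W1W2 (9.30%) were 2-fold below it. In YAP-W1W2, 3 were lower than in YAP-WT (6.30%) and 1 than in YAP-S94A (4.58%). With the mean over probe sets, 1 member was 2-fold lower in YAP-S94A than in YAP-WT (3.91% of all genes) and 1 was 2-fold higher in YAP-W1W2 than in vector (7.34%).

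At 1.5-fold, 15 members were higher than vector for YAP-WT, 8 for YAP-S94A and 5 for YAP-W1W2 (with 4 lower), against 20.9%, 23.6% and 24.0% (17.3% lower) of measured genes. Against YAP-WT, 7 were lower and 1 higher in YAP-S94A (15.1% and 13.9%) and 15 lower in YAP-W1W2 (15.2%). Against YAP-S94A, 6 were lower and 1 higher in YAP-W1W2 (13.2% and 11.9%).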

Other observations

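Genes of fatty acid breakdown did not move as a list. Of 15 genes 14 were measured, with medians of 0.16 for YAP-WT, −0.12 for YAP-S94A and −0.13 for YAP-W1W2 (log2, against vector). PPARD, a nuclear receptor that raises fatty acid oxidation genes, stood at 798.0 for vector, 669 for YAP-WT, 1667 for YAP-S94A and 1789.6 for YAP-W1W2, so that both mutants were high and YAP-WT was near vector. It was 2.49-fold above YAP-WT in YAP-S94A and 2.68-fold in YAP-W1W2. ACADS, the short-chain acyl-CoA dehydrogenase, had another grouping, with YAP-W1W2 near YAP-WT and YAP-S94A near vector. It stood at 218 for vector, 88.3 for YAP-WT, 199.6 for YAP-S94A and 73.6 for YAP-W1W2, and its 2 low values are near the floor of 72.9.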
